A study of Mus musculus with 10 samples.

Results

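Of the 44925 peaks of histone H4 monomethylated at lysine 20 (H4K20me1) that were deposited for cultured mouse muscle stem cells (MuSCs), 3811 gained the mark most clearly after deletion of Kmt5b and are described here as strong-gain peaks. They were selected on the H4K20me1 scores themselves: a strong-gain peak lies on an autosome, has a mean score over 50 in the 4 libraries, and its lower score in Kmt5b-deleted MuSCs (sKO) is more than 3 times its higher score in control MuSCs (Ctrl). Of the 40902 autosomal peaks with a mean over 50, called tested peaks below, these 3811 are 9.32%. Because the scores chose the peaks, their gain is given as a description with no test. Tests are given only for Pol II S2P, the elongating form of RNA polymerase II, which the selection did not use.

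H4K20me1 is set by KMT5A (SET8), mostly between G2 and mitosis, and is the substrate that KMT5B and KMT5C convert into the dimethylated and trimethylated forms. It forms broad domains over bodies of transcribed genes and coats the inactive X chromosome. Phosphorylation of serine 2 in the C-terminal repeat of RNA polymerase II marks polymerase that has left the promoter and is elongating. In CUT&RUN, an antibody bound in permeabilised cells tethers a micrococcal nuclease, which releases the DNA around the target for sequencing.

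The MuSCs, the satellite cells that rebuild skeletal muscle fibres, were isolated by magnetic sorting from adult mice and cultured. All mice carried Pax7CreERT, a tamoxifen-inducible Cre recombinase driven by Pax7, which is active in satellite cells. Ctrl cells had the wild-type Kmt5b gene (labelled Pax7CreERT/Suv4-20h1WT) and sKO cells the inactivated gene (labelled Pax7CreERT/Suv4-20h1KO), so that cells in which Cre did not act would retain Kmt5b. Each genotype has 2 H4K20me1 and 2 Pol II S2P libraries, described by the study as biological replicates, and 2 IgG libraries were not analysed here. The study's methods describe scores as spike-in normalised coverage. They are whole numbers, were read here as totals over a peak and divided by its length for values per kilobase, and their exact formula is not given in the sources used here.

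Summed over all peaks, H4K20me1 scores came to between 15218720 and 35046570 per library and Pol II S2P scores to between 3257665 and 4885638, and the number of reads behind a score was not taken from these tables. The 3 tested peaks listed with Kmt5b had H4K20me1 sums of 1332 and 1740 (Ctrl) and 1934 and 2196 (sKO), and none of them was a strong-gain peak. Its 2 Pol II S2P peaks summed to 24 and 62 (Ctrl) and 48 and 22 (sKO), which overlap, so Kmt5b gave no check of the genotype labels. Of 10 marker genes of satellite cells and myoblasts, 8 had Pol II S2P peaks listed with them, which summed to between 8711 and 12491 per library. Cdh15 and Myf5 were the exceptions, although 2 Pol II S2P peaks not listed with Myf5 overlapped its strong-gain H4K20me1 peak. Markers of endothelium summed to between 133 and 256, of fibro-adipogenic cells to between 240 and 360, of Schwann cells to between 268 and 410 and of leukocytes to between 874 and 1368, nearly all of the last from Cd68. A Pol II S2P peak was listed with 2 of 5 endothelial, 2 of 5 leukocyte, 1 of 5 fibro-adipogenic and 3 of 4 Schwann cell markers. Ptprc, Cdh5, Kdr and Pdgfra were among those without one.

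Strong-gain peaks were poor in H4K20me1 in Ctrl and reached the general level in sKO. Their median score per kilobase was 11.1 and 12.5 for Ctrl against 50.4 and 53.7 for sKO. Over all tested peaks it was 18.5 and 25.8 against 47.2 and 51.1. The sKO levels of both sets were close, and the sets stood apart mainly in Ctrl. A library averages many cells, so a large gain in some cells and a smaller one in all cannot be told apart. Ordered by Ctrl score per kilobase, the lowest quintile of tested peaks (2.89 to 16.7 per kilobase) held 3636 of the 3811, which is 44.4% of that quintile, and the highest quintile held 1. Ordered by sKO score per kilobase, the share selected went from 3.07% of the lowest quintile to 16.2% of the highest. Both scores enter the selection, so these shares are a description.

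**Figure D1:**
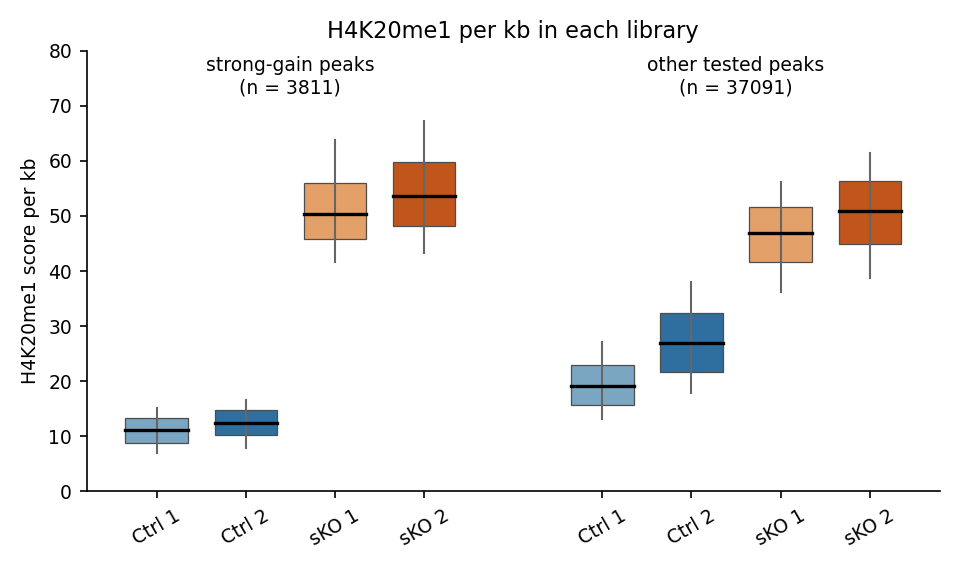
H4K20me1 score per kilobase (vertical axis) in each of the 4 libraries for the 3811 strong-gain peaks and the 37091 other tested peaks, with boxes from the lower to the upper quartile, a black line at the median and whiskers from the 10th to the 90th percentile. The strong-gain peaks sit at medians of 11.1 and 12.5 in Ctrl, below the 19.2 and 26.9 of the other peaks, while the sKO medians of the 2 sets lie between 46.8 and 53.7.

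On the scale of log2(score + 1), the library median of strong-gain peaks was 6.08 ± 0.12 for Ctrl against 8.26 ± 0.09 for sKO (SD between libraries, n = 2 each), compared with 7.43 ± 0.30 and 8.66 ± 0.11 over all tested peaks. The median strong-gain peak had a log2 fold change of 2.12, beside 1.13 for the median tested peak. These peaks held 2.45% and 2.08% of the tested H4K20me1 score of Ctrl and 4.95% and 4.90% of that of sKO. When libraries were scaled to equal totals, which removes any shift common to all peaks, the median log2 fold change became 1.15 for the strong-gain peaks and 0.16 for all tested peaks, and only 210 peaks met the selection limits. Ranked by ratio on that scale, 2994 (78.6%) of the 3811 were again among the 3811 tested peaks of highest ratio. That ranking reuses the scores that selected the peaks, so the overlap is a description and no independent check.

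The ratio of the lower sKO to the higher Ctrl score had a median of 3.61, was under 4 in 67.4% of strong-gain peaks, exceeded 5 in 493 and exceeded 10 in 6. Just inside the limit lay a peak at Spag6 with 536 and 528 in Ctrl against 1609 and 1918 in sKO, and a peak at Zhx2 with 324 and 312 against 973 and 1082. Just outside lay an unlisted peak of chromosome 1 with 67 and 98 against 294 and 355. No gap in the ratios marked the limit, with 423 strong-gain peaks at 3.1 or less and 586 other peaks at 2.9 or more. Ctrl replicate 2 exceeded Ctrl replicate 1 in 91.1% of all tested peaks but in 67.6% of strong-gain peaks. Without Ctrl replicate 2, 10291 peaks met the limits, and without sKO replicate 1, 6088 peaks did.

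Of the 10 peaks of highest ratio, 8 were listed with a gene and 2 were not. With 1 added to each score, the highest ratio belonged to a peak of 3.8 kb at Vamp8 (chr6:72382400-72386199), which encodes a SNARE protein of endosomal fusion. It scored 12 and 10 in Ctrl against 179 and 192 in sKO, a 16.9-fold difference between means. Next came a peak of 1.4 kb within Lamb3 (chr1:193337800-193339199), the gene of the beta 3 chain of laminin-332, with 4 and 7 in Ctrl against 130 and 105 in sKO. Cep41, which encodes a centrosomal and ciliary protein, held a peak of 6.2 kb (chr6:30672600-30678799) with 25 and 29 against 358 and 411.

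A peak of 2.6 kb (chr7:139275400-139277999) was listed with no gene and scored 11 and 12 in Ctrl against 149 and 150 in sKO, with the nearest protein-coding start, that of Pwwp2b, at 28217 bases. A further Lamb3 peak of 4.2 kb (chr1:193341200-193345399), reaching past the 3′ end of the gene, had 17 and 13 against 202 and 244. An unlisted peak of 1.4 kb (chr10:88727800-88729199), with its centre 2359 bases from the start of the Golgi GTPase gene Arl1, had 9 and 7 against 121 and 98. The selection fixes that both sKO scores lie far above both Ctrl scores at these peaks.

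Bcl3, a gene of the IκB family, held a peak over its start (chr7:19821600-19827399) with 27 and 28 in Ctrl against 269 and 300 in sKO. The S100a16 peak (chr3:90531400-90545599), of 14.2 kb over a gene of a calcium-binding protein, was the longest of the 10 and had 63 and 70 against 651 and 782. Zeb2, which encodes a zinc finger repressor, held a peak (chr2:45103000-45108399) that had 23 and 21 against 246 and 217, and of which 80.8% is annotated as exon. Rab13, the gene of a small GTPase of vesicle traffic, held a peak (chr3:90220000-90223199) that had 7 and 15 against 156 and 143. A Pol II S2P peak overlapped 9 of the 10 peaks, the Cep41 peak being the exception.

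**Figure D2:**
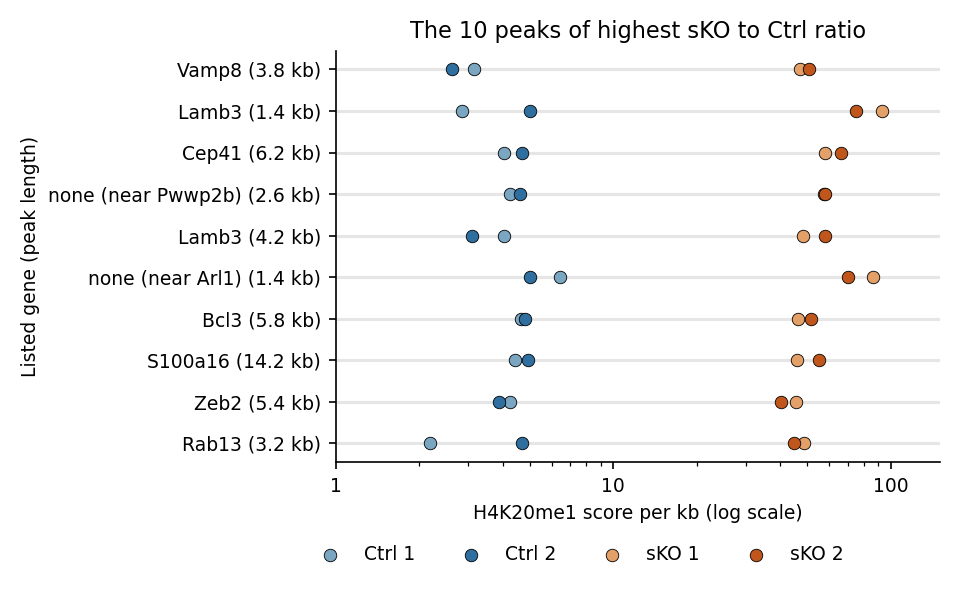
H4K20me1 score per kilobase (horizontal log axis) in the 2 Ctrl and 2 sKO libraries for the 10 strong-gain peaks of highest ratio, each named by its listed gene or the nearest protein-coding gene start, with its length. All Ctrl points lie below 10 and all sKO points above 40. The selection fixes the gap between the genotypes.

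The central 300 bases of the 5 peaks of highest ratio are shown because there the mark was lowest in Ctrl relative to sKO. They are the plus strand of GRCm38, written 5′ to 3′, with matches to CAGCTG (an E-box of the kind bound by myogenic factors), TGANTCA (the AP-1 motif) and CACGTG in capitals, on either strand since each motif reads the same on both.
Vamp8 peak, chr6:72384150-72384449, beyond the 3′ end of the gene: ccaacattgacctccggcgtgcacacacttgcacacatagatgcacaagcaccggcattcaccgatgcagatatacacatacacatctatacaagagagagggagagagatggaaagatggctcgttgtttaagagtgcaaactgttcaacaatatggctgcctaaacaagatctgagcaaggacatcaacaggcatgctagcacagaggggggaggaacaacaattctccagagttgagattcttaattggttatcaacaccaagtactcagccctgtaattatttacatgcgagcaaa
Lamb3 peak, chr1:193338350-193338649, intronic: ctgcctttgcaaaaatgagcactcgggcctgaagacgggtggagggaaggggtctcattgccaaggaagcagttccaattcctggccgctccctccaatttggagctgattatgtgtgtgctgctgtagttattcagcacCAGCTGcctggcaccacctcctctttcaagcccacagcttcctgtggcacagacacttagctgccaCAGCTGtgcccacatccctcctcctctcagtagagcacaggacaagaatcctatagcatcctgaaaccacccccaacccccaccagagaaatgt
Cep41 peak, chr6:30675550-30675849, intronic: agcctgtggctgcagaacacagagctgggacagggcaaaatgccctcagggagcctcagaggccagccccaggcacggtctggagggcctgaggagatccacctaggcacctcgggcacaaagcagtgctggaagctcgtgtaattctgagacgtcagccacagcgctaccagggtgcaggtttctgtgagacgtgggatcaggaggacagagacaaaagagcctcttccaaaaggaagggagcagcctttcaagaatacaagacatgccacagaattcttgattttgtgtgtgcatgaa
Unlisted peak near Pwwp2b, chr7:139276550-139276849, intergenic: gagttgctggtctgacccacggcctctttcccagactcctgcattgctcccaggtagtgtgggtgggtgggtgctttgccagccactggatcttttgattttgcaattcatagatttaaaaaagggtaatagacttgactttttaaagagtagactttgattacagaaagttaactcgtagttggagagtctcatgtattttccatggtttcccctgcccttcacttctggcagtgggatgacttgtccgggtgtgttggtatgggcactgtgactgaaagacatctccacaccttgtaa
Lamb3 peak, chr1:193343150-193343449, with 76 exonic bases: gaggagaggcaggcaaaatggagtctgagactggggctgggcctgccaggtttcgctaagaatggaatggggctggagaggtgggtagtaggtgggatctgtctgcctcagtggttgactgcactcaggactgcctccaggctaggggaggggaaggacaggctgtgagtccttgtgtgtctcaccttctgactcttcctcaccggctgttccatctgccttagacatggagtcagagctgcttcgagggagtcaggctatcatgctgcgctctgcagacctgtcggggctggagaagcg
Of these 5 windows, the intronic Lamb3 window alone held a match, 2 of CAGCTG, and none held TGANTCA or CACGTG. GC content ranged from 45.0% to 58.7%. Over all 3811 strong-gain peaks, 15.98% of such central windows held CAGCTG, 10.3% TGANTCA and 3.83% CACGTG, beside 13.9%, 8.99% and 3.89% of those of tested peaks.

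The strong-gain peaks with the highest sKO scores were also among the longest, and their ratios lay close to the limit. The longest, 65.0 kb on chromosome 18 over the PDGF receptor gene Pdgfrb and its neighbours, scored 963 and 1074 in Ctrl against 3420 and 3732 in sKO. A peak of 51.6 kb over Jag1, the gene of a Notch ligand, scored 715 and 957 against 2985 and 3208. The peak of 56.6 kb listed with Stard10, which encodes a lipid transfer protein, scored 716 and 938 against 3002 and 3036.

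Peaks listed with Scnn1a, a sodium channel subunit gene, and Zfp324, a zinc finger gene, had similar ratios. The first scored 829 and 866 against 2768 and 2788 and the second 630 and 796 against 2541 and 2878. Ttc7b completed the 6 highest with 640 and 749 against 2340 and 2526. All 6 had a ratio between 3.12 and 3.20. Their Ctrl level, between 14.3 and 16.2 per kilobase, was several times the 2.89 to 5.71 per kilobase of the 10 peaks of highest ratio, while their sKO levels, between 49.96 and 60.01, lay within the range of those peaks.

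Strong-gain peaks often lay next to each other. Of the tested peaks adjacent to a strong-gain peak, 29.9% were themselves strong-gain peaks, compared with 7.20% of those adjacent to another tested peak. Adjacent peaks that were not selected had a median log2 fold change of 1.37 next to strong-gain peaks and of 1.05 elsewhere. Still, 1970 (51.7%) stood alone, and 929 (24.4%) were in runs of 3 or more.

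The longest run, picked after its values were seen, held 19 adjacent strong-gain peaks from 193183200 to 193596999 on chromosome 1, over Traf3ip3, Lamb3, Camk1g and 4631405K08Rik. The 19 peaks summed to 920 and 1120 in Ctrl against 6167 and 6719 in sKO. In Ctrl their median level was 6.17 and 7.71 per kilobase, and the 11 other tested peaks within 150 kb on either side had medians of 19.4 and 25.7. In sKO the medians were 48.1 and 48.9 within the run and 49.0 and 51.9 in the flanks. The H4K20me1 scores chose the peaks of the run, so these levels are a description. Pol II S2P peaks overlapped 8 of the 19 peaks and 1 of the 11 flanking peaks. The next runs were 13 peaks around Fggy and Junos on chromosome 4, with sums of 697 and 701 against 3960 and 4326, and 8 peaks within Bcar3 on chromosome 3, with 1102 and 1210 against 4565 and 4850.

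**Figure D3:**
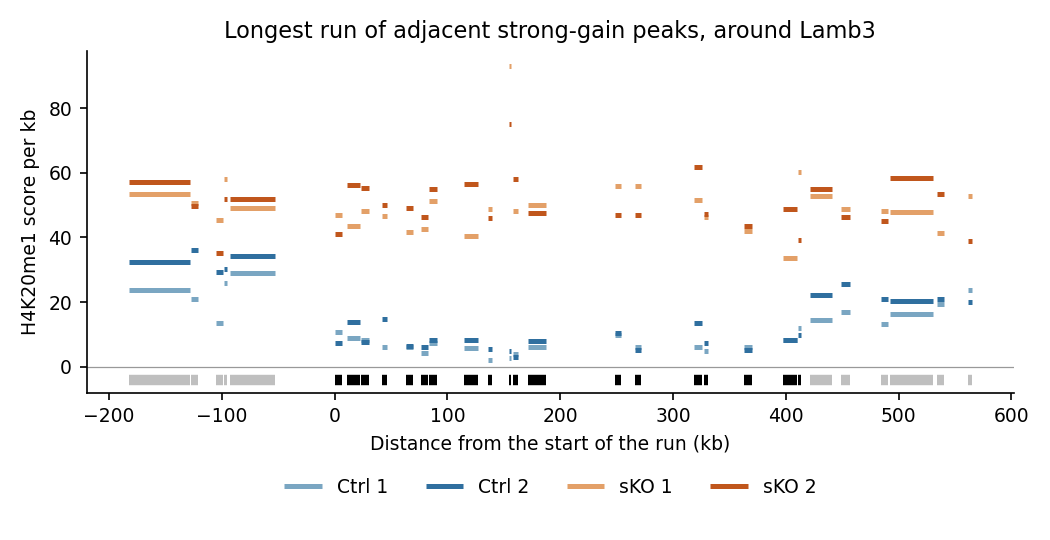
H4K20me1 score per kilobase (vertical axis) of each tested peak, drawn over its length as 1 line per library, against distance in kb from the start of the run of 19 strong-gain peaks around Lamb3. Black blocks under the axis line are strong-gain peaks and grey blocks other tested peaks; the Ctrl lines drop to between 2.19 and 14.8 within the run, whereas the sKO lines stay at 33.7 or above.

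The 3811 peaks were listed with 2127 genes, of which 1700 (79.9%) had 1 strong-gain peak and 165 had 3 or more. Fggy, the gene of a carbohydrate kinase, and Lamb3 had only strong-gain peaks, 11 of 11 and 9 of 9. Over the 11 Fggy peaks the scores summed to 566 and 594 in Ctrl against 3262 and 3626 in sKO, a 5.94-fold difference of means, with Ctrl levels between 4.17 and 12.4 per kilobase. Over the 9 Lamb3 peaks they summed to 311 and 405 against 2478 and 2856, a 7.45-fold difference.

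In other large genes only part of the peaks was selected. Frmd4a, which encodes a FERM domain scaffold protein, had 11 of 35, with sums of 867 and 908 in Ctrl against 3826 and 4083 in sKO. Zbtb20, a zinc finger repressor gene, had 10 of 18, with 1292 and 1409 against 6220 and 6865. Gm20388, an annotated locus of 4435 kb that the deposited table names Galnt2, had 9 of 140, with 891 and 912 against 3493 and 3446. The remaining peaks of these genes had median log2 fold changes of 1.10, 1.48 and 0.80. Among genes with 3 or more tested peaks, 19 had only strong-gain peaks, such as Ampd3 (AMP deaminase, 5 of 5) with 286 and 328 against 1496 and 1599, and Slc43a2 (an amino acid transporter, 5 of 5) with 342 and 404 against 1947 and 2047.

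Strong-gain peaks were shorter, nearer to gene starts and richer in G and C than tested peaks as a whole. Their median length was 6 kb (quartiles 4 and 9.4, range 0.8 to 65), against 8.6 kb. The median GC content was 45.7% against 44.3%, the observed to expected ratio of CpG dinucleotides was 0.22 against 0.20, and 19.6% against 21.6% of bases were repeats as marked in the reference. The centre lay a median of 20.6 kb from the nearest protein-coding start, against 31.6 kb, and within 1 kb of one in 6.66% against 2.4% of peaks. A protein-coding start lay inside 20.5% of strong-gain and 16.3% of tested peaks, and 24.7% against 22.0% were listed with no gene. Across autosomes the share of tested peaks selected ran from 6.66% on chromosome 9 to 11.9% on chromosome 3.

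The promoters (250 bases before the start, RefSeq on GRCm38.p6) are shown for 3 protein-coding genes whose start lay in strong-gain peaks of high ratio, with capitals as above. They were chosen among promoters that overlap no annotated UTR, which leaves out that of Bcl3. The Rab13 and Nfix starts are RefSeq starts inside the gene as GENCODE annotates it. Nfix encodes a nuclear factor I protein of fetal myogenesis, and its peak of 9.8 kb scored 52 and 43 in Ctrl against 513 and 474 in sKO.
S100a16 promoter, plus strand, chr3:90537004-90537253: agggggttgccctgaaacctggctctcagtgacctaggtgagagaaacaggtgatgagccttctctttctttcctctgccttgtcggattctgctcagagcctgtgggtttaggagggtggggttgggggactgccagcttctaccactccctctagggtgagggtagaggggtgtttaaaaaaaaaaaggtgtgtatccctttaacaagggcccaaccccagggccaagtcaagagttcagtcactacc
Rab13 promoter, plus strand, chr3:90220534-90220783: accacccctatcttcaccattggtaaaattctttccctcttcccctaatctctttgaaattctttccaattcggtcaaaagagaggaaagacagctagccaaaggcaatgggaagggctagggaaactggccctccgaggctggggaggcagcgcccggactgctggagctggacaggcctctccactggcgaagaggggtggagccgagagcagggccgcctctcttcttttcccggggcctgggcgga
Nfix promoter, minus strand, chr8:84780083-84780332: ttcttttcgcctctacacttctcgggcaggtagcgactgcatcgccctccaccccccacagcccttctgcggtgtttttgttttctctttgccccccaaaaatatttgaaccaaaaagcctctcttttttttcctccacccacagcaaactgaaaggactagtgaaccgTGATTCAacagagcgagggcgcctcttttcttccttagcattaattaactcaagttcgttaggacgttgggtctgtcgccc
The S100a16 and Rab13 promoters held none of the 3 motifs, and the Nfix promoter held 1 TGANTCA match. Of the 1225 RefSeq promoters whose start lay in a strong-gain peak, 19.4% held CAGCTG, 6.69% TGANTCA and 4.98% CACGTG. The shares over all 31365 autosomal promoters were 13.0%, 6.77% and 6.02%. Promoters whose start lay in any tested peak were not counted apart, and the promoter sets were not compared at equal GC content.

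Pol II S2P peaks were denser over strong-gain peaks than over tested peaks as a whole, although the selection did not use that antibody. A Pol II S2P peak overlapped 1890 (49.6%) of the strong-gain peaks by at least 1 base, 25.6% of tested peaks and 23.1% of those not selected. There were 115 overlaps per megabase of strong-gain peak against 53.7 per megabase of tested peak. The Pol II S2P score of the overlapping peaks came to 7728 and 10015 per megabase of strong-gain peak in Ctrl against 10663 and 7696 in sKO, against 3275 and 4386 and against 5156 and 3586 for tested peaks. The value over strong-gain peaks was the higher in each of the 4 libraries. Each Pol II S2P peak counted with its whole score, also where most of it lay outside the H4K20me1 peak. This raises the value per megabase more for short H4K20me1 peaks, and the score was not compared at equal length.

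Within classes of length and place, strong-gain peaks were also more frequent among peaks with a Pol II S2P peak than among those without. In the shortest length quintile, 40.8% of peaks with a Pol II S2P peak were strong-gain peaks and 9.38% of those without. In the longest, from 20.2 kb, the shares were 2.89% and 1.11%. Among peaks over no annotated gene the shares were 37.3% (338 of 907) and 7.41% (601 of 8116), the widest gap of the 4 places. For peaks over a protein-coding gene but no start they were 17.2% and 4.80%, and for peaks holding a protein-coding start 13.2% and 9.81%. By number of overlapping Pol II S2P peaks, the share was 6.31% with none, 21.6% with 1, 21.2% with 2 or 3, and 6.82% with 4 or more, where peaks are long.

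**Figure D4:**
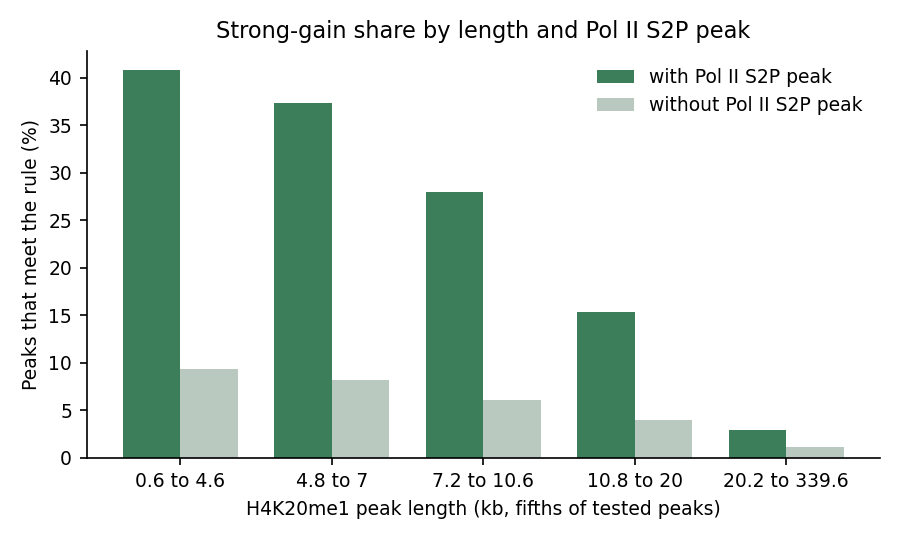
Percent of tested H4K20me1 peaks that met the selection limits (vertical axis, from 0) in length quintiles given in kb, for peaks with (dark) and without (light) an overlapping Pol II S2P peak. With such a peak the share goes from 40.8% in the shortest to 2.89% in the longest quintile, and without from 9.38% to 1.11%.

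The Pol II S2P peaks over strong-gain peaks lay away from gene starts about as often as Pol II S2P peaks in general. Of these 3390 peaks, 2846 (84.0%) had their centre over 1 kb from a protein-coding start. The share was 84.4% of all 50698 autosomal Pol II S2P peaks and 87.0% of those over other tested H4K20me1 peaks. In the 300 bases at their centres, 34.2% held CAGCTG and 24.3% TGANTCA, against 22.1% and 15.9% of the 29192 centres over other tested H4K20me1 peaks. Centres over no tested H4K20me1 peak (18116) had 28.5% and 25.1%. The share with CACGTG was 4.31% over strong-gain peaks and 4.51% overall.

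The median GC content of the centres was 51.3% over strong-gain and 47.3% over other tested peaks. Within each GC quintile of Pol II S2P centres, the strong-gain share with CAGCTG was above that over other tested H4K20me1 peaks, from 18.8% against 10.2% in the lowest to 36.8% against 29.1% in the highest. The same held for TGANTCA, with 24.8% against 14.6% and 15.3% against 9.54%. Centres over no tested H4K20me1 peak held TGANTCA more often than those over strong-gain peaks in 4 of the 5 quintiles (28.3% against 24.8% in the lowest) and less often in the highest (10.2%). For CAGCTG their share was above that over strong-gain peaks in the middle quintile alone (34.4% against 32.3%). These windows were chosen after the files had been examined, and a match is a description of the letters only.

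The Pol II S2P centres are shown for 3 strong-gain peaks with a strong Pol II S2P peak and a motif match, on the plus strand of GRCm38 with capitals as above.
Rgs3 peak, chr4:62705380-62705679, beyond the 3′ end of the gene: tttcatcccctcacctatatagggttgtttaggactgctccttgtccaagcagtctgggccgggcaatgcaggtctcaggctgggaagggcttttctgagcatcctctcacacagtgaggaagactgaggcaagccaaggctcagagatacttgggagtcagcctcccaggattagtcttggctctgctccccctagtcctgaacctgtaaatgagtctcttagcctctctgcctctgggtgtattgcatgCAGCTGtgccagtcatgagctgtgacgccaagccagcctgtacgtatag
Cic peak, chr7:25279431-25279730, in the gene with 90 exonic bases: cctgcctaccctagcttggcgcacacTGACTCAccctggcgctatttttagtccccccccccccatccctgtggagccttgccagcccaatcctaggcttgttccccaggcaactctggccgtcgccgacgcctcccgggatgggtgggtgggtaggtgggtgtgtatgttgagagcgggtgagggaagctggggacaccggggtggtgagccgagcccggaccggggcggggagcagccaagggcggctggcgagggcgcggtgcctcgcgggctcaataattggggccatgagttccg
Unlisted peak near Tshz3, chr7:36689860-36690159, intergenic: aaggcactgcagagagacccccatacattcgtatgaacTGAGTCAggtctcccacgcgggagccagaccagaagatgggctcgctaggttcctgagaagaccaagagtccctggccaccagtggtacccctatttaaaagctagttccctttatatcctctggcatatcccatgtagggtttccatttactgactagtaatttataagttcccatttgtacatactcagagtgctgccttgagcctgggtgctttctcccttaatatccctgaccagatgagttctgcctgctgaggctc
The strong-gain H4K20me1 peaks overlapped by these Pol II S2P peaks scored 44 and 65 in Ctrl against 202 and 237 in sKO at Rgs3. They scored 37 and 54 against 279 and 321 at Cic, and 49 and 85 against 519 and 618 near Tshz3. The Rgs3 and Tshz3 windows lie inside their H4K20me1 peak. The Cic window lies outside its H4K20me1 peak (chr7:25274200-25278999), which its Pol II S2P peak overlaps only in part. The Rgs3 window held 1 CAGCTG match and the others 1 TGANTCA match each.

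To ask whether elongating polymerase changed where H4K20me1 was gained most, Pol II S2P was compared between genotypes over all 22353 autosomal Pol II S2P peaks with a mean over 50. Of these, 1789 of the 3390 peaks over strong-gain peaks passed the filter. With limma on log2(score + 1) and Benjamini-Hochberg adjustment (called below an adjusted p of 0.1 if the log2 fold change exceeded 0.5 in size), 0 of the 1789 were called higher and 0 lower in sKO, against 10 (0.0447%) and 1 (0.00447%) of all tested peaks. At an unadjusted limma p under 0.05 there were 23 higher and 3 lower of the 1789, beside 740 higher and 34 lower of all 22353. The median log2 fold change was 0.03 (quartiles -0.16 and 0.26), beside 0.11 over all tested peaks and 0.17 over peaks in other tested H4K20me1 peaks. Both sKO scores were above both Ctrl scores in 220 (12.3%) of the 1789 and lay below both in 140 (7.83%), against 16.7% and 6.84% of all tested peaks.

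Over the 1789 peaks the median score was 81 and 106 (Ctrl) and 114 and 83 (sKO), so the libraries of a genotype differed by more than the genotypes did. With libraries scaled to equal totals, the median became -0.11 over strong-gain peaks and -0.03 over all tested peaks, and limma called 13 of 1792 (0.725%) higher and 33 (1.84%) lower. Of all tested peaks, 2.49% were then called higher and 1.2% lower.

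**Figure D5:**
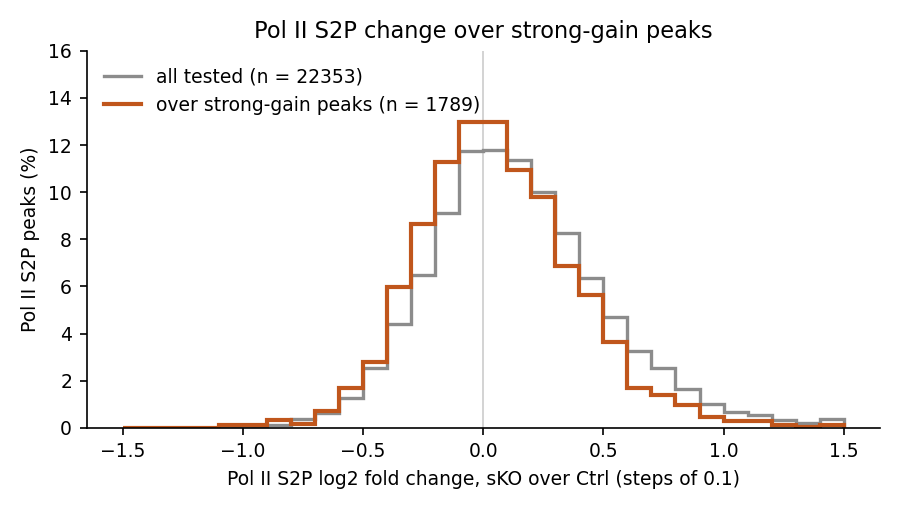
Distribution of the limma log2 fold change of Pol II S2P, sKO over Ctrl on the deposited scale (horizontal axis, steps of 0.1, the end steps holding values beyond them), as percent of the 1789 peaks over strong-gain peaks and of all 22353 tested peaks. The curve over strong-gain peaks is centred at 0.03, left of that over all tested peaks at 0.11.

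The strongest Pol II S2P peaks over strong-gain peaks showed no common direction. The peak in Nes, the gene of the intermediate filament protein nestin (chr3:87979546-87984754), scored 1348 and 1724 in Ctrl against 1540 and 1060 in sKO, and its strong-gain peak 108 and 104 against 350 and 450 for H4K20me1. The Ypel4 peak (chr2:84733119-84740189) scored 1234 and 1586 against 1597 and 1070, and an unlisted peak near Cd79a (chr7:24890991-24895817) 1221 and 1314 against 2042 and 1227. In these 3 the genotypes overlapped. The Pol II S2P peak near Cd79a lay mostly outside its strong-gain peak, which begins at 24895400, so its score is not that of the region of gain.

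At Rgs3, a gene of a regulator of G protein signalling, Pol II S2P (chr4:62703371-62707690) scored 992 and 900 in Ctrl against 730 and 556 in sKO, with no overlap, while H4K20me1 was over 3 times higher in sKO. The log2 fold change was -0.57 ± 0.40 (SE; limma adjusted p = 0.9998) on the deposited scale and -0.71 ± 0.14 (limma adjusted p = 0.0013) on equal totals. Over 11 alternative settings the adjusted p ran from 0.00041 to 1. At Cic, which encodes the repressor Capicua, Pol II S2P (chr7:25278038-25281125) scored 816 and 922 against 1176 and 756. Most of that Pol II S2P peak likewise lay outside its strong-gain peak, which ends at 25278999.

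The largest positive fold changes belonged to low peaks. An unlisted peak near Synpo on chromosome 18 scored 41 and 32 in Ctrl against 120 and 95 in sKO (log2 fold change 1.53 ± 0.48 SE, limma adjusted p = 0.527). A peak in Ampd3 (chr7:110780520-110781009) scored 20 and 43 against 82 and 77 (1.40 ± 0.58), and an unlisted peak nearest to Rflna (chr5:124963676-124964265) 38 and 52 against 148 and 88 (1.34 ± 0.44). None was called on the deposited scale, whereas on equal totals limma called all 3, with adjusted p = 0.0064, 0.058 and 0.0104. Over all alternative settings the adjusted p of each reached 1, and the lowest were 0.0036, 0.058 and 0.0080.

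The largest negative fold changes were at an unlisted peak near the histone gene Hist1h4k (chr13:21748843-21749592), with 104 and 84 against 39 and 49 (-1.08 ± 0.47), at Sbno2 (chr10:80073858-80074483), with 62 and 88 against 54 and 23 (-1.04 ± 0.56), and at Ugcg, the gene of glucosylceramide synthase (chr4:59194878-59195616), with 97 and 92 against 48 and 47 (-0.98 ± 0.46). On equal totals limma called these 3 as well (adjusted p = 0.021, 0.068 and 0.029), and over all alternative settings the adjusted p again ran up to 1, from lowest values of 0.014, 0.068 and 0.024. Each of these 6 Pol II S2P peaks lay in a region where H4K20me1 was more than 3 times higher in sKO, as the selection fixes, and they were picked for the size of their fold change.

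Summed per gene over all listed Pol II S2P peaks, 1290 of the 2127 genes with a strong-gain peak passed the filter. With limma none of them was called higher or lower (0% of all 8531 tested genes in either direction). At an unadjusted limma p under 0.05 there were 7 higher and 0 lower of the 1290, beside 95 higher and 5 lower of all 8531. Their median log2 fold change was 0.07, beside 0.09 over all tested genes. For Fggy the 9 Pol II S2P peaks summed to 449 and 495 in Ctrl against 457 and 413 in sKO, and for Lamb3 the 7 peaks to 397 and 474 against 537 and 420. In both genes the genotypes overlapped.

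Some genes of muscle identity and contraction were listed with strong-gain peaks. Of the 13750 genes with a tested peak, 15.5% had a strong-gain peak. Of the satellite cell and myogenic factors, 6 of 14 did (Chrna1, Mef2c, Megf10, Myf5, Pax7 and Vcam1), and of the contractile genes 7 of 17 (Actn2, Atp2a1, Myh1, Myh7, Tnni1, Tnnt1 and Tnnt3). The lists were written with earlier results of these data known, and no test over a list was made.

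Pax7, the transcription factor gene that defines satellite cells and drives the Cre of both genotypes, had 1 strong-gain peak of 5, with 56 and 72 in Ctrl against 314 and 275 in sKO. The Myf5 peak scored 56 and 67 against 284 and 442. All 3 tested peaks of Mef2c, a partner of myogenic factors, were strong-gain peaks and summed to 617 and 766 against 2514 and 3028. Both peaks of Vcam1, an adhesion molecule of satellite cells, had higher ratios, with sums of 50 and 88 against 509 and 471.

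Among contractile genes, Tnni1, the slow-type troponin I gene, had both of its peaks selected, with sums of 105 and 121 in Ctrl against 743 and 727 in sKO. The Myh7 peak scored 162 and 167 against 749 and 768 and the Tnnt1 peak 22 and 38 against 209 and 168. Myf5, Myh1 and Myh7 had no Pol II S2P peak listed with them, although 2 Pol II S2P peaks overlapped the Myf5 strong-gain peak. Pol II S2P over Tnni1 summed to 399 and 535 in Ctrl against 675 and 362 in sKO, and over Chrna1, the acetylcholine receptor gene, to 2473 and 2754 against 3024 and 2229, both with overlapping genotypes. The 33 peaks over strong-gain peaks called lower on equal totals, beside 13 higher, included a Chrna1 and a Tnnt1 peak. The first scored 625 and 691 against 569 and 444 (limma adjusted p = 0.035). The second scored 154 and 206 against 138 and 98 (0.039). They were picked after their values were seen, and neither was called on the deposited scale.

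Strong-gain peaks were listed with 7 of 39 Rab GTPase and SNARE genes and 7 of 45 centrosome and cilium genes, shares of 17.9% and 15.6% that are near the 15.5% of all genes. Vamp5, a SNARE gene of muscle next to Vamp8, had a peak with 24 and 35 in Ctrl against 190 and 202 in sKO. The most marked of 3 strong-gain peaks in Cep128 had 48 and 58 against 320 and 462, and the Bbs5 peak 79 and 79 against 379 and 378. Few genes of the other lists were hit. Of the p53 response genes 1 of 16 had such a peak (Polk, 62 and 60 against 190 and 211), of the replication and replication stress genes 1 of 30 (Rad9a, 200 and 215 against 716 and 727), and of the H4K20 and histone methylation enzymes 0 of 22.

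Of the markers of other cell types with a tested peak, 1 of 4 endothelial and 1 of 2 Schwann cell markers had a strong-gain peak. Pecam1, an endothelial adhesion gene, held a peak with 62 and 67 in Ctrl against 387 and 442 in sKO, and Mbp, a myelin gene, had 3 strong-gain peaks of 4 that summed to 482 and 609 against 2470 and 2962. None of the leukocyte (0 of 3) or fibro-adipogenic (0 of 2) markers had one. The Pol II S2P sums of the endothelial and Schwann cell markers were the low values given above, and the part of such cells in these gains was not tested.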

How the data were processed

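CUT&RUN libraries for H4K20me1 and Pol II S2P were compared between cultured Ctrl and sKO MuSCs. Per the submitters' processing notes, reads were checked and trimmed with FastQC 0.11.8 and Trimmomatic 0.39, aligned to mm10 with STAR 2.7.3a and deduplicated with Picard 2.21.7. SICER 0.0.41 and MACS2 2.1.1 are named for peaks, and which caller served which antibody is not given in the sources used here. The authors deposited a score per union peak and library, described as coverage normalised by spike-in. Scores are whole numbers and their formula is not given in the sources used here, so they were not treated as counts. The authors also deposited the fraction of each peak inside its listed gene, used here as given. The spike-in factors were not used here, and the scale between libraries could not be checked, which limits every difference between genotypes.

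Genes were named from GENCODE M21 by identifier, since 424 of 11980 deposited H4K20me1 symbols differed from it. GC content, motifs and sequences were read from GRCm38 with pysam 0.24.0, and no peak ran past a chromosome end. Peak coordinates are given as deposited. The members, gene lists and tests were chosen with earlier results of these data known. The regions named are the 10 of highest ratio after adding 1 to each score, the 6 highest in sKO, the 4 longest, the 2 on each side of the limit, the Pol II S2P peaks highest in Ctrl (5) or with the largest changes (3 each way), the 5 genes with the most members, and the 12 of highest ratio among 42 listed with genes of the fixed lists. Other named members of the lists, the runs, and the genes with only strong-gain peaks were picked after their values were seen.

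Pol II S2P was tested with limma 3.58.1 (lmFit, eBayes with trend) in R 4.3.3 on log2(score + 1), autosomes only, mean over 50, genotype as the factor and 2 libraries per group. The fold change on this scale understates changes of low peaks. The labels name no batch. The procedure was tested on simulated data, with planted changes larger than any over strong-gain peaks and in peaks of high score only. That simulation does not show whether changes of the size seen over strong-gain peaks could have been called. Tables were made with Python 3.11.15, pandas 2.3.3 and numpy 2.4.6. Alternatives were other limits, pseudocounts, scales, overlaps, leaving out each library and a replicate block. A marker gene and a peak just outside the ratio limit are not reported here.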

Additional observations from a re-analysis of the deposited data

How the results depend on the processing

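The number of strong-gain peaks followed the limits. It was 7362 at a ratio over 2.5, 1229 at a ratio over 4, and 210 on equal totals, where the median log2 fold change of the 3811 peaks was 1.15. It stayed within 1.5 times of 3811 under other minimum means and under added pseudocounts. Leaving out 1 H4K20me1 library gave between 4345 and 10291 peaks. With log2(score + 10) the median became 1.98.

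No Pol II S2P peak over strong-gain peaks was called under the deposited scale with another pseudocount, minimum mean or overlap. Equal totals gave 13 higher (0.725%) and 33 lower (1.84%), against 2.49% and 1.2% of all tested peaks. Quantile normalisation gave 11 higher and 17 lower. Leaving out 1 library gave between 0 and 1 higher and 0 lower, and the median moved between -0.19 and 0.27. Per gene, equal totals gave 7 higher and 5 lower. Across peaks, deviations of samples of the same replicate number were hardly correlated (0.03 with H4K20me1, -0.04 with Pol II S2P), and they were not taken as pairs. Such a correlation does not measure a shift common to all peaks. For H4K20me1, replicate 2 was the higher in 91.1% of tested peaks in Ctrl and in 70.2% in sKO. The replicate block gave 0 higher and 0 lower for peaks and for genes, and with equal totals, an alternative added after seeing the data, 13 higher and 26 lower. For quantile normalisation, genes on equal totals and the block on equal totals, calls over all peaks or genes were not counted. Those counts are therefore given without a background. Of the named Pol II S2P peaks, Cic turned to -0.020 on equal totals, also with the block, and to -0.10 under quantile normalisation. Leaving out 1 library gave log2 fold changes from -0.52 to 0.015 at Nes, -0.39 to 0.19 at Ypel4, -0.046 to 0.69 near Cd79a and -0.20 to 0.44 at Cic. The other 7 kept their sign in the settings that gave a value. Ampd3 without either sKO library and Sbno2 without Ctrl replicate 2 gave none, since their means fell under the minimum. The cause of these moves with scale was not tested.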

Other observations

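On the X chromosome, which the selection leaves out, none of the 3901 H4K20me1 peaks with a mean over 50 met the ratio limit. The highest ratio of the lower sKO to the higher Ctrl score there was 3, and the median was 1.01, compared with 1.75 over tested autosomal peaks. The paper states that female and male mice were used. The sex behind each library was not considered here, and its part in these X values was not tested.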
